A study of Mus musculus with 41 samples.

Results

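Gene expression in epidermal stem cells was compared between ZT4 and ZT0 in mice on the control diet, where ZT is zeitgeber time in hours, counted from lights on. The samples were those labelled with the control diet and the ZT4 or ZT0 time point, which are 7 of the 41 arrays of the series: 3 arrays of ZT4 and 4 arrays of ZT0. Both groups were wild type female C57B6/J mice, 15 weeks old, which had eaten the control diet ad libitum for 7 weeks from 8 weeks of age. The series also holds mice on a high fat diet, with 4 arrays at ZT4 and 3 at ZT0, and other times of day for both diets. Mice were killed 4 per diet group on a day, all of 1 time point, so the time of day and the collection day cannot be told apart in any result below. The labels do not say that each array is a separate mouse, so a p-value here covers the spread among arrays, which may be technical. The number of arrays limits the precision.

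Epidermal stem cells sit in the basal layer and the hair follicle and replenish the skin. They carry a circadian clock, in which the proteins CLOCK and BMAL1 (encoded by Arntl) activate the genes of their own repressors, the Per, Cry and Nr1d families, and genes of rhythmic output. DNA replication, mitosis and metabolism of the epidermis are known to be timed over the day. ZT0 is the start of the light phase, when mice, which are active in the dark, begin to rest, and ZT4 lies within the rest phase.

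RNA was amplified and hybridised to expression arrays, and the deposited values are log2 intensities made by RMA, a method that corrects background, normalises between arrays and summarises probes. Array medians over the series lay between 6.41 and 6.44. Pearson correlations over all probe sets were 0.992 among the ZT4 arrays, 0.990 to 0.993 among the ZT0 arrays and 0.977 to 0.983 between the groups. On the first principal component over all 41 arrays the ZT4 arrays lay at 10.6, 7.69 and 16.1 and the ZT0 arrays at -16.2, -11.0, -18.5 and -15.7, with no overlap. The 2 control ZT8 arrays, which enter the day courses and the shared spread, stood apart on the second component, at -33.1 and -42.7, where the other control arrays lay between -8.18 and 9.56. The actin control probe sets gave 3′ minus 5′ log2 signals of -0.55, -0.56 and -0.51 at ZT4 and -0.63, -0.64, -0.78 and -0.73 at ZT0, a measure of RNA and amplification quality whose groups did not overlap. The same difference for Gapdh was -0.26, -0.28 and -0.35 at ZT4 and -0.29, -0.30, -0.25 and -0.36 at ZT0, which overlapped. The part of RNA quality in the results was not tested. In bulk samples, fewer cells of a type and less RNA per cell cannot be told apart. All 13 measured basal keratinocyte genes, the markers of the labelled cells, lay above the array median on all 7 arrays. So did 13 of 15 suprabasal differentiation genes and all 30 measured cytosolic ribosome genes, so this trait is not particular to the basal markers.

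Many genes differed between ZT4 and ZT0, and the largest differences were rises. Of 17097 genes, 2355 passed an adjusted p of 0.05 (13.8%), by limma with Benjamini-Hochberg adjustment over all genes. Of these, 1126 were higher at ZT4 (6.59% of the genes) and 1229 were lower (7.19%). That balance turned to 1289 higher and 1022 lower when array medians of all probe sets were subtracted, and to 1348 higher and 1008 lower with medians of the tested genes. A change of at least 2-fold was seen in 177 of the higher genes and 34 of the lower ones, and the 20 genes that passed with at least 4-fold were all higher at ZT4. The median size of change was 0.506 on the log2 scale among higher genes and 0.425 among lower ones, beside a median over all genes of -0.02. The arrays of ZT4 and ZT0 did not overlap for 4173 genes (24.4%), of which 2125 also passed the test. Without ZT4 replicate 1 the count was 1568, and without ZT4 replicate 3 the count of lower genes was 754.

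The 15 named rises lay between 2.10 and 3.06 on the log2 scale, and for each of them every ZT4 array lay above every ZT0 array, which was a condition for naming them. Their 8 other probe sets, of 6 of the genes, were all higher at ZT4 and passed, 7 of them with a smaller change than the probe set used. Ifi202b, an interferon-inducible gene of a family of similar copies that the probes may not separate, had log2 values of 10.49, 10.31 and 11.02 at ZT4 and 7.23, 7.82, 7.43 and 7.70 at ZT0. Its change was 3.06 ± 0.37 (log2, SE), or 8.35-fold (adjusted p = 1.62e-06, limma). Phlda1, which encodes a pleckstrin homology-like protein, had values of 8.55, 9.11 and 9.33 at ZT4 and 5.27, 6.88, 5.62 and 6.42 at ZT0, a 7.71-fold rise (2.95 ± 0.39, adjusted p = 4.18e-06). The ZT0 arrays of Phlda1 spread more widely (SD 0.73) than its ZT4 arrays (SD 0.40), and the lowest ZT4 array still exceeded the highest ZT0 array.

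Krt16, a keratin of stressed and thickened epidermis, had values of 10.22, 9.84 and 10.29 at ZT4 and 7.79, 7.61, 7.19 and 7.36 at ZT0 (2.63 ± 0.40, adjusted p = 3.12e-05). The growth arrest and DNA damage gene Gadd45a had 8.04, 7.91 and 9.08 at ZT4 and 6.23, 5.91, 5.78 and 5.01 at ZT0, with the third ZT4 array about 1 log2 unit above the others. Its relative Gadd45b had 10.37, 10.49 and 10.27 at ZT4 and 8.29, 8.40, 8.34 and 8.03 at ZT0. Gadd45b had the smallest adjusted p of the 15 named rises (6.76e-12), with a change of 2.11 ± 0.14 and both groups within 0.16 (SD). The transcriptional coregulator gene Ifrd1 had 11.31, 11.08 and 11.53 at ZT4 and 8.67, 9.08, 8.52 and 9.0 at ZT0, a change of 2.48 ± 0.26.

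Pard6b, a subunit of the cell polarity complex, averaged 9.56 ± 0.21 at ZT4 (SD, n = 3) and 7.25 ± 0.29 at ZT0 (SD, n = 4). Cldn4, a tight junction protein, averaged 8.76 ± 0.34 at ZT4 (SD, n = 3) and 6.55 ± 0.24 at ZT0 (SD, n = 4). Both genes rose. The gap between their groups was several times the SD within each, which the choice of large rises without overlap favoured. Trib1, a pseudokinase, had 9.33, 9.21 and 9.20 at ZT4 and 6.94, 7.25, 6.88 and 7.36 at ZT0 (adjusted p = 4.6e-09), and its other probe set rose by 0.36 ± 0.10. Dio2, the enzyme that activates thyroid hormone, rose by 2.13 ± 0.55 and had the largest adjusted p of the 15 (0.00804). Azin1, an inhibitor of antizyme that keeps up polyamine synthesis, rose by 2.10 ± 0.27. The magnesium transporter gene Nipal1 rose by 2.46 ± 0.46, the myelin protein gene Pmp22 by 2.21 ± 0.41, the polo-like kinase gene Plk2 by 2.20 ± 0.29 and Tsc22d2, of the TSC22 family of regulators, by 2.18 ± 0.29.

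**Figure D1:**
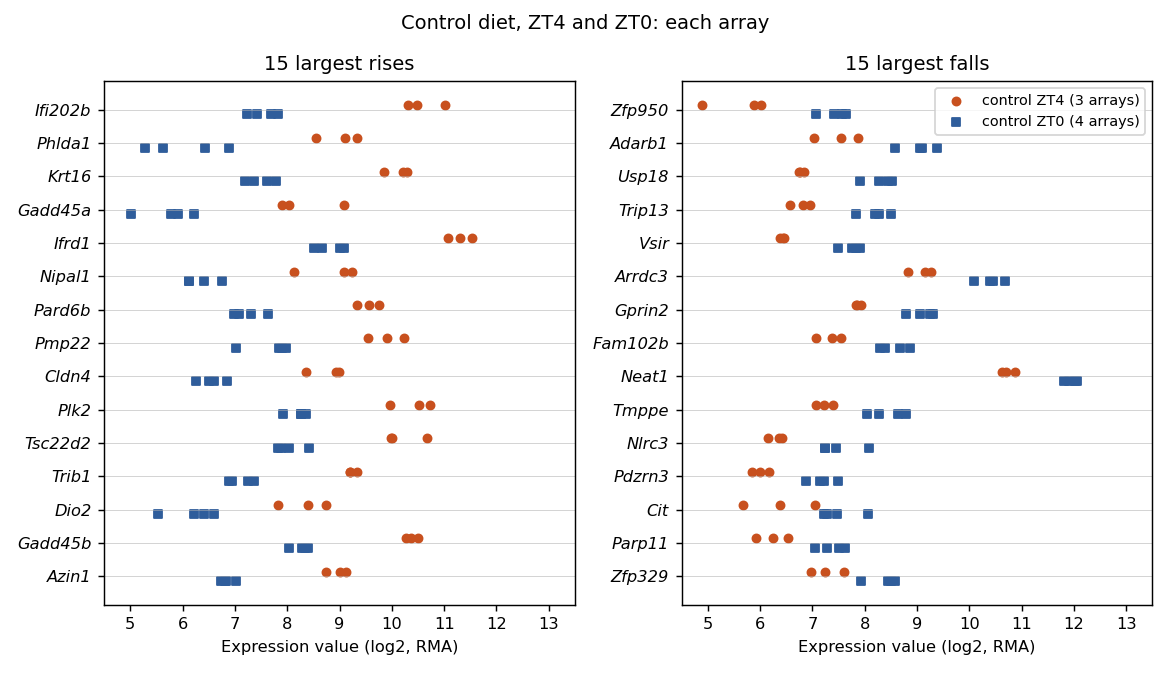
Expression values (log2, RMA) of each array for the 15 genes with the largest rises (left) and the 15 with the largest falls (right). Circles are the 3 control ZT4 arrays and squares the 4 control ZT0 arrays, which do not overlap for any of these genes because the choice required it.

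The 15 named falls lay between -1.82 and -1.10 on the log2 scale. Of their 10 other probe sets, of 8 of the genes, 9 were lower at ZT4, 3 of these passed, and all 10 showed a smaller change than the probe set used. Zfp950, a zinc finger gene, had values of 5.88, 4.89 and 6.02 at ZT4 and 7.65, 7.41, 7.06 and 7.56 at ZT0 (-1.82 ± 0.25, adjusted p = 9.3e-06), and its other probe set gave -0.61 ± 0.27, which did not pass. The RNA editing enzyme gene Adarb1 had 7.03, 7.88 and 7.55 at ZT4 and 9.10, 8.57, 9.06 and 9.37 at ZT0, a change of -1.54 ± 0.25. Its other probe sets changed by -0.37 ± 0.08, which passed, and 0.02 ± 0.09, which did not. Usp18, which removes the ubiquitin-like protein ISG15 from its targets, had 6.75, 6.77 and 6.84 at ZT4 and 7.91, 8.51, 8.28 and 8.44 at ZT0 (-1.50 ± 0.18, adjusted p = 1.36e-06). The 3 ZT4 arrays of Usp18 lay within an SD of 0.05.

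Trip13, an ATPase of the spindle checkpoint, averaged 6.78 ± 0.19 at ZT4 (SD, n = 3) and 8.20 ± 0.27 at ZT0 (SD, n = 4), and its 2 other probe sets gave -0.01 and -0.06. Neat1, the long noncoding RNA that builds nuclear paraspeckles, had 10.62, 10.71 and 10.87 at ZT4 and 12.02, 11.91, 12.06 and 11.82 at ZT0 (-1.22 ± 0.18, adjusted p = 1.94e-05). Cit, a kinase needed for the last step of cell division, fell by 1.14 on the log2 scale with an SD of 0.68 over its ZT4 arrays, and its call was lost without ZT4 replicate 2 (adjusted p = 0.0511, limma) and with only the arrays compared (0.0641). Its other probe set gave -0.24 and did not pass. The immune checkpoint gene Vsir changed by -1.32 ± 0.28 (other probe set -0.23, not passed), and the arrestin domain gene Arrdc3 by -1.32 ± 0.27. Falls were also named for Gprin2 (-1.23), Fam102b (-1.23), Tmppe (-1.21), Nlrc3 (-1.20, other probe set -0.21, not passed), Pdzrn3 (-1.17), Parp11 (-1.13) and Zfp329 (-1.10).

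Among the clock genes, Nr1d2, Bhlhe40, Nfil3, Usp2 and Rora rose and Hlf fell. Of 19 measured clock genes, 5 were higher at ZT4 and 1 was lower, beside 6.59% and 7.19% of all genes. The other 13 did not pass the test, and the median change was 0.12, beside -0.02 over all genes. Nr1d2, which encodes the repressor REV-ERB beta, had values of 9.0, 8.78 and 9.20 at ZT4 and 7.63, 7.99, 7.55 and 7.67 at ZT0. It rose by 1.28 ± 0.16 (2.44-fold, adjusted p = 1.52e-06), and by 1.55 ± 0.17 in its other probe set. Bhlhe40, a repressor that competes with CLOCK and BMAL1 for DNA, had 10.53, 10.62 and 10.86 at ZT4 and 9.22, 9.30, 8.96 and 9.30 at ZT0 (1.48 ± 0.19, adjusted p = 2.46e-06). The 7 other measured repressors did not pass. Ciart, a repressor of CLOCK and BMAL1, gave a difference of 0.23 ± 0.11 (adjusted p = 0.161) with arrays that did not overlap. The period genes gave 0.27 ± 0.14 (Per2, other probe set -0.14), 0.12 ± 0.22 (Per1) and -0.07 ± 0.14 (Per3, other probe sets -0.48, -0.47, -0.20 and 0.02), the cryptochrome genes 0.23 ± 0.19 (Cry1) and -0.00 ± 0.12 (Cry2), and Bhlhe41, the relative of Bhlhe40, -0.01 ± 0.09. For these 6 genes the arrays of the 2 times overlapped. No probe set was assigned to Nr1d1 alone, and it was not analysed here.

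Of the 4 measured activators 1 passed. Arntl had 8.96, 8.48 and 9.33 at ZT4 and 8.69, 8.97, 9.65 and 9.37 at ZT0, which overlap (-0.25 ± 0.31, adjusted p = 0.655), and its other probe set gave 0.15 ± 0.14. Npas2, which can stand in for CLOCK, gave -0.11 ± 0.08, and -0.68 ± 0.26 in its other probe set (adjusted p = 0.0824). Clock gave -0.04 ± 0.18, and neither gene passed. Rora, an activator of Arntl, rose by 0.27 ± 0.08 (adjusted p = 0.0175). The 4 other probe sets of Rora gave between -0.28 and 0.59. The call was lost with the mean of its probe sets (adjusted p = 0.25), with only the arrays compared (0.0785), without ZT4 replicate 3 (0.164) and without ZT0 replicate 1 (0.0531).

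Of the output genes, Nfil3, a repressor that binds the D-box element, had 8.95, 8.95 and 8.69 at ZT4 and 7.50, 7.00, 7.14 and 7.59 at ZT0, a rise of 1.56 ± 0.20 (2.94-fold, adjusted p = 2.48e-06). Hlf, an activator of the same element, had 9.45, 9.29 and 9.35 at ZT4 and 9.70, 10.05, 9.94 and 9.92 at ZT0 and fell by 0.54 on the log2 scale (SE 0.09, adjusted p = 5.13e-05). Its other probe set gave -0.16 ± 0.16 and did not pass (adjusted p = 0.574). Usp2, a deubiquitinase, rose by 1.37 ± 0.37 (1.79 in its other probe set, which passed), and its call was lost without ZT4 replicate 3 (adjusted p = 0.0708). The D-box activators Tef (0.16 ± 0.12, other probe set 0.40 ± 0.18) and Dbp (-0.23 ± 0.18) and the mitotic inhibitor Wee1 (-0.11 ± 0.22) did not pass.

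The group means of the control diet follow for the day, from ZT0 in the order of the 6 times. Nr1d2 had means of 7.71, 8.99, 9.08, 9.47, 8.94 and 7.85, with the highest at ZT12. Bhlhe40 had means of 9.20, 10.67, 9.18, 10.11, 10.36 and 10.67, and Nfil3 had 7.31, 8.86, 7.24, 7.13, 8.52 and 9.13. For these 2 genes the ZT8 mean, from the 2 arrays that stood apart, lay within 0.1 of the ZT0 mean, and the ZT20 mean lay at or above the ZT4 mean. Hlf was lowest at ZT4 and highest at ZT12 (10.36). Dbp, with 6.83 at ZT4 and 7.05 at ZT0, reached 8.64 at ZT12, and Tef, with 8.45 at ZT4 and 8.30 at ZT0, reached 10.10 at ZT12. Each time was 1 collection day, so time and day cannot be told apart in these courses either.

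**Figure D2:**
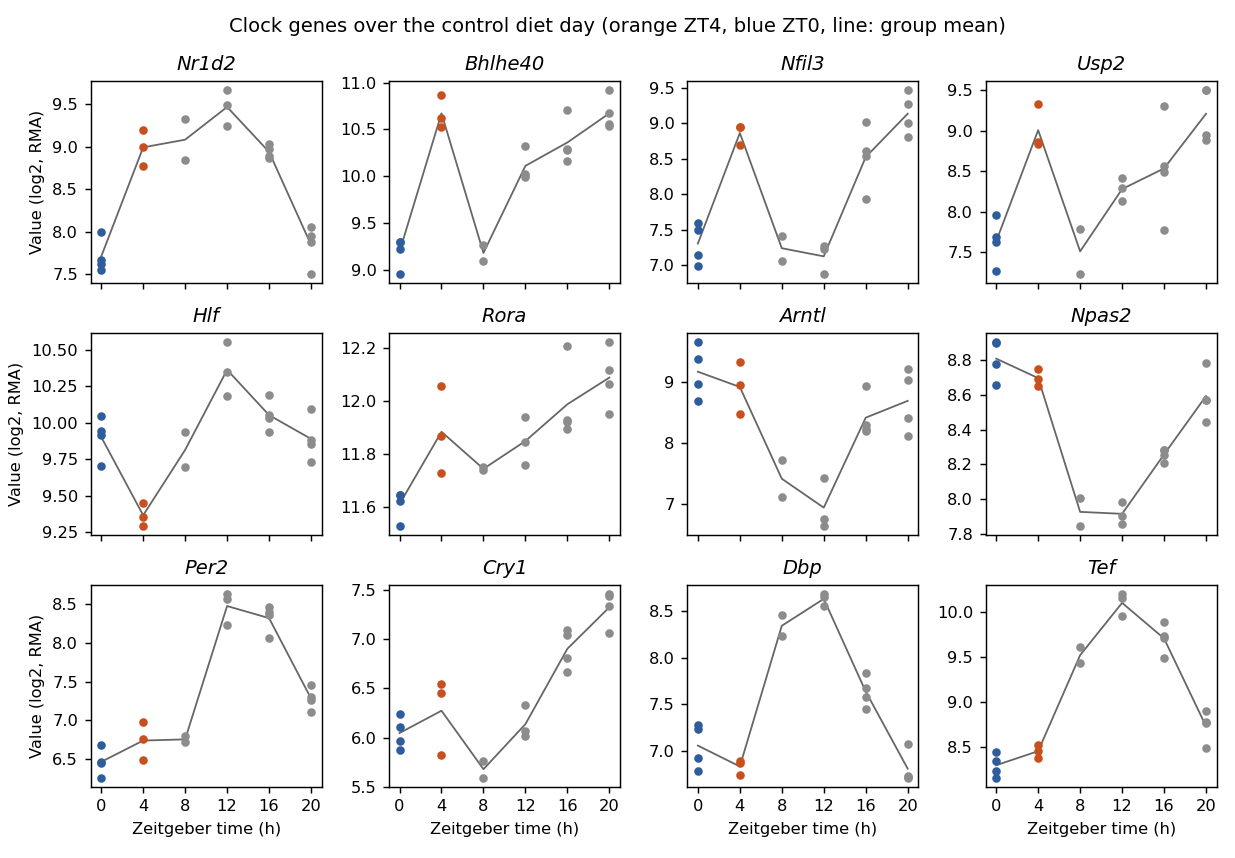
Values (log2, RMA) of 12 clock genes over the control diet day, by zeitgeber time in hours. Each point is 1 array (orange ZT4, blue ZT0, grey other times) and the line joins group means; Nr1d2, Bhlhe40, Nfil3, Usp2 and Hlf separate ZT4 from ZT0, while Arntl, Per2 and Cry1 overlap.

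Immediate early genes are transcribed soon after a stimulus. Of 24 measured members, 7 were higher at ZT4, beside 6.59% of all genes, and none passed as lower (3 had an unadjusted p under 0.05 downward, limma), with a median of 0.10. Maff, a small Maf transcription factor, had 9.71, 9.53 and 10.07 at ZT4 and 7.70, 7.86, 7.32 and 7.81 at ZT0 (2.10 ± 0.28, adjusted p = 5.25e-06). Fosl1, a subunit of AP-1, had 11.58, 11.44 and 11.66 at ZT4 and 9.32, 9.75, 9.23 and 10.15 at ZT0, and rose by 1.94 ± 0.27, or 2.82 ± 0.33 in its other probe set. Ier3, a survival gene, rose by 1.13 ± 0.16, Myc, the growth regulator, by 0.69 ± 0.11 and Klf6, a zinc finger factor, by 0.46 ± 0.08. The nuclear receptor gene Nr4a2 rose by 1.06 ± 0.16 in the probe set used, and by 1.77 and 3.04 in 2 others, while 2 further ones gave -0.00 and -0.07 and did not pass.

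For NF-kB and inflammatory mediators 4 of 17 rose, beside 6.59% of all genes, and none passed as lower (none at an unadjusted p under 0.05, limma). Tnfaip3, the deubiquitinase A20 that restrains NF-kB, had 10.73, 10.71 and 11.05 at ZT4 and 9.23, 9.34, 8.71 and 9.52 at ZT0 (1.63 ± 0.18, adjusted p = 2.47e-07). The inhibitor gene Nfkbia rose by 0.58 ± 0.08 and the cell death inhibitor gene Birc3 by 0.39 ± 0.10. The other probe set of Birc3 gave 0.10 ± 0.20, and its call was lost with the mean of its probe sets (adjusted p = 0.179). Ptgs2, the inducible cyclooxygenase of prostaglandin synthesis, had 7.11, 6.84 and 8.14 at ZT4 and 5.24, 6.09, 4.58 and 5.28 at ZT0, a rise of 2.06 ± 0.46 with a wide spread in both groups.

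Of 14 EGF receptor ligands and feedback genes, 6 rose and 1 fell, beside 6.59% and 7.19% of all genes, with a median of 0.08. The ligand gene Tgfa had 8.66, 8.43 and 8.69 at ZT4 and 6.85, 6.60, 6.80 and 6.45 at ZT0 (1.92 ± 0.21, adjusted p = 1.97e-07), and its 2 other probe sets gave 0.04, which did not pass, and 0.77, which did. The ligand genes Hbegf (1.12 ± 0.19), Epgn (1.39 ± 0.39) and Ereg (0.34 ± 0.08) rose as well. Ereg averaged 4.88 at ZT4 and 4.54 at ZT0, well below the array medians. Dusp6, a phosphatase that ends ERK signalling, rose by 1.85 ± 0.36, and the feedback inhibitor gene Spry1 by 0.38 ± 0.13 with overlapping arrays. Its relative Spry2 fell by 0.52 on the log2 scale (adjusted p = 0.048; named as the only fall, after its value was seen). Without ZT4 replicate 3 the rises of this list numbered 3, with Epgn (adjusted p = 0.0957) and Ereg (0.0503) among those lost, and Spry1 was lost in turn without each of 6 arrays (up to 0.179) and with only the arrays compared (0.176). The number of falls in the list was 0 in turn without each of 6 arrays, all but ZT4 replicate 2.

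For p53 targets 6 of 14 rose and 1 fell, beside 6.59% and 7.19% of all genes. Besides Gadd45a, Plk2 had 10.53, 9.97 and 10.73 at ZT4 and 8.35, 8.27, 7.92 and 8.27 at ZT0. Pmaip1, which encodes the cell death protein NOXA, had 11.05, 10.49 and 11.16 at ZT4 and 8.85, 9.40, 8.77 and 9.0 at ZT0 (1.90 ± 0.31, adjusted p = 7.56e-05). The stress sensor gene Sesn2 rose by 0.66 ± 0.14 and Mdm2, the ubiquitin ligase of p53, by 0.56 ± 0.13 (other probe set 0.30 ± 0.14, not passed). Zmat3, an RNA-binding target of p53, fell by 0.54 on the log2 scale. The median of the list was 0.02, beside -0.02 over all genes.

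Promoter windows are shown for Hlf, a clock output gene, and for Plk2, Maff and Gadd45b, rises that hold one of the elements searched for. The last 3 were chosen after the values and windows were seen. Windows of 300 bases, from 250 before to 50 after a transcription start, come from RefSeq (GRCm38.p6), and capitals mark the E-box CACGTG, to which CLOCK and BMAL1 or Myc can bind, or the cAMP response element TGACGTCA.
Hlf, chr11:90390868-90391167, minus strand: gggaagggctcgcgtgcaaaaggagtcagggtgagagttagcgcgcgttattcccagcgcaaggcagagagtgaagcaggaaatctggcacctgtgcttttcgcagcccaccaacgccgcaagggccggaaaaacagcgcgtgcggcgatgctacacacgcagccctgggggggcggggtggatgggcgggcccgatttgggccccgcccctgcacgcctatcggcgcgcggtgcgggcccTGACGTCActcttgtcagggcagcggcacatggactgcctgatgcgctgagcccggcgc
Plk2, chr13:110394794-110395093, plus strand: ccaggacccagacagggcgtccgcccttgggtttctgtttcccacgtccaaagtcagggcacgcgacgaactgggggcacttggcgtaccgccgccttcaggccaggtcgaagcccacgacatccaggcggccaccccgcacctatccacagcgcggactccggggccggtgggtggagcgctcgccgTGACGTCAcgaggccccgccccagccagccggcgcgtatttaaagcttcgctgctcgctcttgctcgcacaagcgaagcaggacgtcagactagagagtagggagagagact
Maff, chr15:79347270-79347569, plus strand: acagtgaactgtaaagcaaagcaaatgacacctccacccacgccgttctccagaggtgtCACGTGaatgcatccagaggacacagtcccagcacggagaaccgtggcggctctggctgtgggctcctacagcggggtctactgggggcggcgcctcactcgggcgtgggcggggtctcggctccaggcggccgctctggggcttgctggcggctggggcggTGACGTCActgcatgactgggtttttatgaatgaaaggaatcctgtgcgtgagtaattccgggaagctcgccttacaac
Gadd45b, chr10:80929841-80930140, plus strand: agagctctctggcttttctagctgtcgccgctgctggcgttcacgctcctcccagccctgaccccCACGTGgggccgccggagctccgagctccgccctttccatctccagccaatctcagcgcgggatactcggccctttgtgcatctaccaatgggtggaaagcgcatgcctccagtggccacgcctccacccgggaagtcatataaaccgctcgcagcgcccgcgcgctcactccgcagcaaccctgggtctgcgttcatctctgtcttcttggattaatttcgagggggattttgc

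The Hlf and Plk2 windows held 1 cAMP response element each, the Gadd45b window 1 E-box, and this window of Maff, 1 of 3 for the gene, held 1 of each. The windows of Nr1d2 and Nfil3 held neither element nor a D-box (TTATGTAA or TTACGTAA, both strands), which says only that these letters are not in these windows, and Bhlhe40 had no window to search. Over all windows of genes higher at ZT4, 10.6% held the E-box, against 9.0% for genes lower at ZT4 and 8.69% for all genes tested. The cAMP response element was in 4.15% of windows of higher genes, 3.27% of windows of lower genes and 2.50% of those of all genes tested. For the D-box the shares were 0.691%, 0.797% and 0.82%. The comparison covered 13605 of the tested genes, which had a window, and a match is a description of letters only.

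BMP and TGF-beta genes govern quiescence of follicle stem cells. Of 17 measured, 5 rose and 1 fell, beside 6.59% and 7.19% of all genes, with a median of 0.25. The ligand gene Bmp2 had 9.63, 9.57 and 9.79 at ZT4 and 7.86, 8.17, 7.79 and 7.86 at ZT0 (1.74 ± 0.21, adjusted p = 1.7e-06). Id3, a BMP target and inhibitor of differentiation, had 9.87, 9.97 and 10.21 at ZT4 and 8.80, 9.26, 8.62 and 8.91 at ZT0 (1.12 ± 0.17). Skil, a corepressor induced by TGF-beta, rose by 1.66 ± 0.32, the receptor gene Tgfbr1 by 0.65 ± 0.18 (other probe sets 0.59, which passed, and 0.05, which did not) and the ligand gene Tgfb3 by 0.63 ± 0.21, while the ligand gene Tgfb2 fell by 0.45. Without ZT4 replicate 3 the rises numbered 3, with Tgfbr1 (adjusted p = 0.0653) and Tgfb3 (0.103) lost. Tgfbr1 was also lost without ZT4 replicate 1 (0.104), Tgfb3 without each of 5 other arrays, and Tgfb2 without ZT4 replicate 2 (0.0541). Tgfb2 averaged 4.75 at ZT4 and 5.20 at ZT0, well below the array medians. The falls in this list numbered 0 when genes with a mean under 5 were left out. For Notch, 2 of 10 fell, beside 7.19% of all genes. These were the target Nrarp, which fell by 0.62, and the receptor gene Notch1, which fell by 0.22 with overlapping arrays (other probe set -0.05, not passed). The call of Notch1 was also lost with only the arrays compared (adjusted p = 0.152), with the mean of its probe sets (0.24) and with array medians subtracted (up to 0.0904). Each of these calls was lost in turn without 5 of the 7 arrays (adjusted p up to 0.174 for Nrarp and 0.275 for Notch1). For Wnt 0 of 16 passed by limma, and 6 had an unadjusted p under 0.05, beside 4674 of all 17097 genes. In this list 2 passed upward when array medians of all probe sets were subtracted, and 2 passed downward with the control diet arrays alone.

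**Figure D3:**
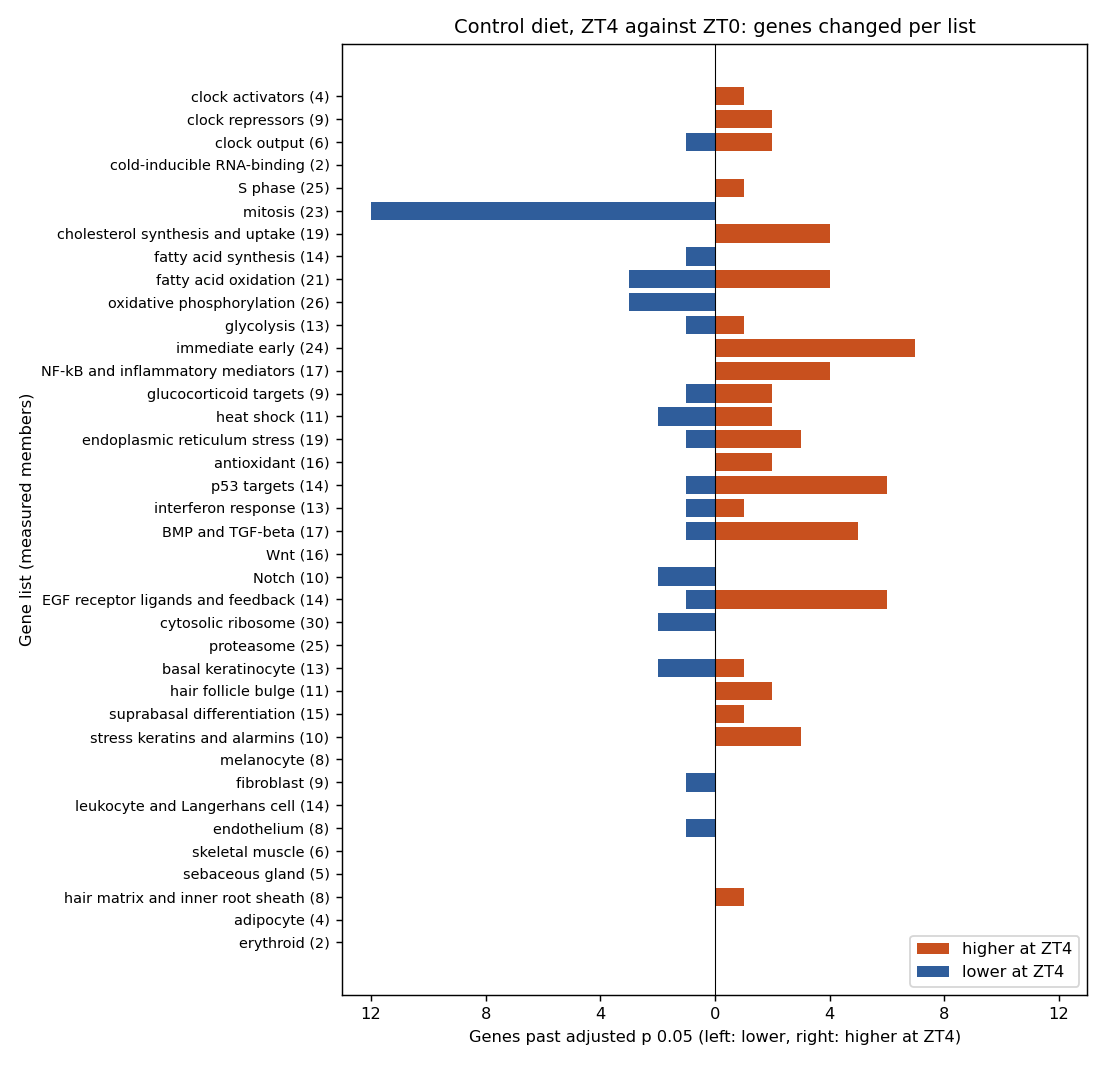
Number of genes past adjusted p 0.05 in each gene list, higher at control ZT4 to the right of 0 and lower to the left, with the number of measured members in brackets. Mitosis has the longest bar to the left (12 of 23), and the longest to the right are immediate early genes (7 of 24) and, as larger parts of their lists, p53 targets and EGF receptor genes (6 of 14 each). Over all genes 6.59% were higher and 7.19% lower.

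Of 23 measured mitosis genes, 12 were lower at ZT4, beside 7.19% of all genes, and none passed as higher (none at an unadjusted p under 0.05, limma). The median change was -0.42, beside -0.02 over all genes, and 21 of 23 estimates were negative. Top2a, the topoisomerase that untangles chromosomes, had 7.79, 7.23 and 7.71 at ZT4 and 8.46, 8.59, 8.56 and 8.55 at ZT0 (-0.96 ± 0.15, adjusted p = 3.81e-05). Its 2 other probe sets gave -0.13 and 0.09 and did not pass. Cdk1, the kinase that starts mitosis, had 7.94, 7.68 and 8.12 at ZT4 and 8.94, 8.94, 8.90 and 8.65 at ZT0 (-0.94 ± 0.16, adjusted p = 0.000135).

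The log2 changes of Nusap1, a spindle protein (-1.08, other probe set -0.10), Aurkb, the kinase of chromosome alignment (-1.04, other probe set -1.11), the kinesin gene Kif20a (-0.71) and the checkpoint kinase gene Bub1 (-0.51, other probe set -0.18) passed as well. The call of Bub1 was lost with only the arrays compared (adjusted p = 0.0522). Bub1 averaged 4.84 at ZT4 and 5.35 at ZT0, well below the array medians. The kinase Plk1 (-0.01 ± 0.14), the motility receptor Hmmr (-0.02 ± 0.11) and the kinase Ttk (-0.05 ± 0.17) did not pass, and Tpx2, a spindle assembly factor (0.15 ± 0.20), and Ccnb2, a cyclin of mitosis (0.14 ± 0.17), were the 2 members with positive estimates. These 5 were named after their values were seen. The falls numbered 6 without ZT4 replicate 2, the ZT4 array with the lowest Top2a, Cdk1 and Nusap1 values, and 7 without ZT0 replicate 2 or ZT0 replicate 4. Of 25 S phase genes 1 passed, beside 13.8% of all genes, and the median was 0.05. It was the replication licensing gene Cdt1 (0.68 ± 0.21, adjusted p = 0.0241, other probe sets 0.90 and -0.01). That call was lost without ZT0 replicate 4, ZT4 replicate 1 or ZT4 replicate 2 (adjusted p up to 0.105). Means of Aurkb over the control day, from ZT0 in the order of the 6 times, were 8.70, 7.66, 5.59, 6.96, 7.19 and 8.21, with the highest at ZT0 and the lowest at ZT8, whose 2 arrays (6.21 and 4.97) are those that stood apart on the second component. Of the other times ZT12 was lowest.

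**Figure D4:**
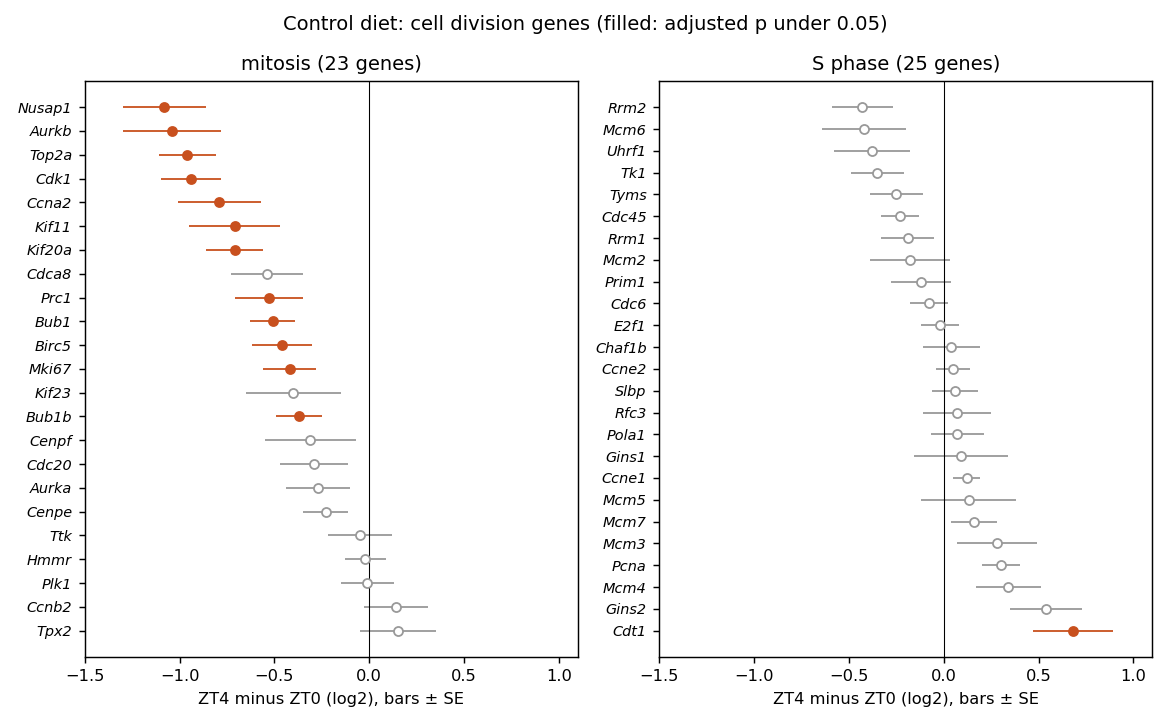
Change at control ZT4 minus ZT0 (log2, with SE) for the measured mitosis genes (left) and S phase genes (right). Filled points passed adjusted p 0.05: 12 mitosis genes, all lower at ZT4, and 1 S phase gene, Cdt1, which was higher.

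For cholesterol synthesis and uptake 4 of 19 rose, beside 6.59% of all genes, with a median of 0.15. None passed as lower (none at an unadjusted p under 0.05, limma). Insig1, which holds back the sterol sensor, had 9.07, 8.81 and 9.37 at ZT4 and 8.11, 7.85, 7.21 and 7.86 at ZT0 (1.32 ± 0.24, adjusted p = 0.000252). The synthesis enzymes Fdft1 (0.52 ± 0.11), Cyp51 (0.81 ± 0.19, other probe sets 0.66, which passed, and 0.59, which did not) and Sqle (1.08 ± 0.32) rose too, and the call of Sqle was lost in turn without each of 5 arrays (adjusted p up to 0.0985). For fatty acid oxidation 4 of 21 rose and 3 fell, beside 6.59% and 7.19% of all genes. These counts were 1 and 1 with only the arrays compared, where Angptl4 (adjusted p = 0.0661), Pdk4 (0.0774), Eci2 (0.0665) and Cpt2 (0.0697) did not pass. Ppara, the nuclear receptor that turns the pathway on, fell by 0.80 on the log2 scale (SE 0.17), while its 2 other probe sets gave -0.42 and -0.30 and did not pass, and Cpt2, which passes fatty acids into mitochondria, fell by 0.65 with overlapping arrays. The electron carrier enzyme Etfdh (0.66 ± 0.17), the isomerase Eci2 (0.56 ± 0.16), Pdk4, which spares glucose (0.53 ± 0.13, overlapping arrays), and Angptl4, an inhibitor of lipoprotein lipase (0.60 ± 0.14, other probe set 0.01), rose. Pdk4 averaged 4.90 at ZT4 and 4.37 at ZT0, well below the array medians. The rises numbered 2 without ZT4 replicate 2, and the falls 1 without ZT0 replicate 2 or ZT4 replicate 1. Among these calls Cpt2 was lost in turn without each of 4 arrays (adjusted p up to 0.134), Eci2 without 2 (up to 0.119), Etfdh without ZT4 replicate 1 (0.0624) and Pdk4 without ZT4 replicate 2 (0.0875).

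For fatty acid synthesis 1 of 14 passed, beside 13.8% of all genes. It was the desaturase gene Scd1, which fell by 0.34 on the log2 scale (other probe set -0.25, not passed) and was lost without ZT4 replicate 2 (adjusted p = 0.0669). Hk2, the hexokinase that traps glucose in the cell, had 8.03, 8.22 and 8.31 at ZT4 and 7.51, 7.23, 6.89 and 7.43 at ZT0 (0.92 ± 0.16, adjusted p = 0.000116). The aldolase gene Aldoa fell by 0.18, so that 2 of 13 glycolysis genes passed, near the 13.8% of all genes. For oxidative phosphorylation 3 of 26 fell, beside 7.19% of all genes, and the median was -0.09. These were the cytochrome oxidase subunit gene Cox7a2 (-0.26) and the ATP synthase subunit genes Atp5a1 (-0.20) and Atp5j (-0.26). The calls of Aldoa, Atp5a1 and Atp5j were lost when array medians of all probe sets were subtracted, and each in turn without 5 of the 7 arrays. Aldoa (adjusted p = 0.164) and Atp5a1 (0.0803) were also lost with only the arrays compared, and all 3 with the control diet arrays alone (0.0591 to 0.0831). Without ZT4 replicate 3 none of the 3 oxidative phosphorylation calls was kept (Cox7a2 0.0599, Atp5a1 0.185, Atp5j 0.156), and without ZT4 replicate 1 the falls numbered 5.

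Of 19 endoplasmic reticulum stress genes 3 rose and 1 fell, beside 6.59% and 7.19% of all genes. Dnajb9, a chaperone partner of that compartment, had 9.42, 9.42 and 9.44 at ZT4 and 8.11, 7.79, 7.82 and 8.09 at ZT0 (1.47 ± 0.18, adjusted p = 2.16e-06). The stress transcription factor gene Atf4 rose by 0.90 ± 0.13 (other probe set 0.18 ± 0.08) and the chaperone gene Hspa5 by 0.50 ± 0.15, while Creld2, a gene of the same compartment, fell by 0.54. The call of Hspa5 was lost in turn without each of 4 arrays (adjusted p up to 0.18). Of 11 heat shock genes 2 rose and 2 fell, beside 6.59% and 7.19% of all genes. The rises were the chaperone genes Hsp90aa1 (0.60, lost without ZT4 replicate 3 with adjusted p = 0.0766) and Hspb1 (0.29, other probe sets 0.30 and 0.34, which passed, and 0.20, which did not). The chaperone gene Hsph1 had 9.47, 9.30 and 9.24 at ZT4 and 10.32, 10.47, 10.47 and 9.87 at ZT0 and fell by 0.95 (adjusted p = 9.16e-06), and the cochaperone gene Chordc1 fell by 0.66.

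Of 16 antioxidant genes 2 rose, beside 6.59% of all genes, and none passed as lower, with a median of 0.01. In either direction 13.8% of all genes passed, near the share of this list. The rises were Txnrd1 (thioredoxin reductase, 1.45 ± 0.24) and Srxn1 (sulfiredoxin, 0.80 ± 0.26, other probe sets 0.82, which passed, and 0.44 and 0.09, which did not). The call of Srxn1 was lost in turn without each of 6 arrays (adjusted p up to 0.109). Of 13 interferon response genes 1 rose, the transcription factor gene Irf1 (0.95 ± 0.18), and 1 fell, Usp18, near the 6.59% and 7.19% of all genes. For glucocorticoid targets 2 of 9 rose and 1 fell, beside 6.59% and 7.19% of all genes, with a median of -0.15. The rises were Errfi1 (an inhibitor of the EGF receptor, 1.36 ± 0.27) and Sgk1 (a kinase, 0.65 ± 0.12). Tsc22d3, which encodes the glucocorticoid-induced leucine zipper, fell by 0.73 (other probe sets -0.91, which passed, and -0.11, which did not). Its call was lost in turn without each of 3 arrays (adjusted p up to 0.0802) and with the control diet arrays alone (0.0505). Of 30 cytosolic ribosome genes 2 were lower, near the 7.19% of all genes. These were Rpl30 (-0.11) and Rpl4 (-0.09), and both calls were lost when array medians were subtracted and with only the arrays compared (adjusted p = 0.23 and 0.295). Of 25 proteasome genes 0 passed by limma, with 3 at an unadjusted p under 0.05, beside 4674 of all 17097 genes. In this list 2 passed upward when array medians of all probe sets were subtracted.

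The mean over the 13 basal keratinocyte genes was 11.42 to 11.53 at ZT4 and 11.36 to 11.52 at ZT0. Of these genes 1 rose and 2 fell, beside 6.59% and 7.19% of all genes. The cadherin gene Cdh3 rose by 0.52 in the probe set used (other probe set -0.20), while Trp63, the master regulator of stratified epithelium, fell by 0.22 and the keratin gene Krt5 fell by 0.12 with overlapping arrays. These 3 calls were each lost in turn without 4 or 5 of the 7 arrays (adjusted p up to 0.108 for Cdh3, 0.115 for Trp63 and 0.109 for Krt5). Cdh3 was also lost with the mean of its probe sets (0.427), and Trp63 (0.0841) and Krt5 (0.245) with only the arrays compared. The other probe sets of Trp63 gave -0.36, which passed, and 0.07 and -0.47, which did not. Of 11 bulge genes, 8 lay above the median on all 7 arrays and 2 rose, beside 6.59% of all genes. Nfatc1, which keeps bulge stem cells quiescent, had 10.41, 10.14 and 10.26 at ZT4 and 9.16, 8.88, 9.03 and 9.56 at ZT0 (1.12 ± 0.15, adjusted p = 6.37e-06). Its other probe sets gave 0.91 and 0.63, which passed, and 0.59 and 0.11, which did not. Fst, an antagonist of activin, rose by 0.51 ± 0.11 (other probe set 0.23 ± 0.20, not passed).

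Of 15 suprabasal genes 1 rose, near the 6.59% of all genes. It was the calmodulin-like gene Calm4 (0.45 ± 0.16, lost in turn without each of 5 arrays with adjusted p up to 0.177), and the early differentiation keratin genes Krt1 (0.11 ± 0.07) and Krt10 (-0.13 ± 0.05) did not pass. For stress keratins and alarmins 3 of 10 rose, beside 6.59% of all genes, namely Krt16 and the cornified envelope genes Sprr1a (1.93 ± 0.35) and Sprr1b (0.69 ± 0.16). Sprr1a had 11.44, 11.27 and 11.51 at ZT4 and 9.30, 9.31, 9.51 and 9.78 at ZT0. The keratin gene Krt6a averaged 8.85 at ZT4 and 7.87 at ZT0 (0.98 ± 0.46) and did not pass (adjusted p = 0.167). The calcium-binding alarmin genes S100a8 (0.01 ± 0.05) and S100a9 (-0.06 ± 0.08) did not pass either.

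For markers of other cells that skin holds, 3 genes passed. Over 9 lists and 64 measured markers, 1 rose, the hair matrix and inner root sheath gene Tchh (0.55 ± 0.17), and 2 fell, the fibroblast gene Dcn, which fell by 0.25, and the endothelial gene Pecam1, which fell by 0.16. At an unadjusted p under 0.05 (limma) there were 15 of 64, beside 4674 of all 17097 genes. At the adjusted threshold 13.8% of all genes passed. Tchh (5.48 at ZT4 and 4.93 at ZT0) and Pecam1 (6.05 and 6.21) averaged below the array medians. The calls of Tchh, Dcn and Pecam1 were lost in turn without each of 5, 7 and 6 of the 7 arrays (adjusted p up to 0.188, 0.25 and 0.134), and those of Dcn (0.0654) and Pecam1 (0.106) with only the arrays compared. As log2 values, the mean over 14 leukocyte and Langerhans cell genes was 6.80 to 6.85 at ZT4 and 6.70 to 6.97 at ZT0, with 6 genes above the array median on all 7 arrays. The mean over 9 fibroblast genes was 6.01 to 6.11 at ZT4 and 6.09 to 6.17 at ZT0, and that over 8 endothelial genes 5.68 to 5.73 at ZT4 and 5.76 to 5.80 at ZT0. The mean over 8 hair matrix genes was 6.12 to 6.20 at ZT4 and 5.97 to 6.10 at ZT0, and that over 8 melanocyte genes 6.01 to 6.04 at ZT4 and 5.91 to 6.03 at ZT0. The part of other cells in the results was not tested.

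The same pair of times was compared in the high fat diet, on other arrays, to see where the control diet change differs. In the high fat diet 1577 genes passed (9.22%), 584 of them higher at ZT4 and 993 lower. That split was 865 and 786 when array medians of the tested genes were subtracted. The share of rises was then 52.4%, in place of 37.0%. With medians taken over every probe set the share moved the other way, to 33.7% (537 higher and 1056 lower). Between the diets 627 genes passed in both, 619 of them in the same direction, which is 39.8% of the high fat calls and 26.6% of the control diet calls. On the first principal component the high fat ZT4 arrays lay at 16.1, 12.9, -3.23 and 19.0, with replicate 3 apart from the others, and the ZT0 arrays at -6.20, -3.93 and -3.94. Without that replicate 1752 genes passed in the high fat diet. The count was 717 without high fat ZT0 replicate 2, 893 without high fat ZT0 replicate 3, 1014 without high fat ZT4 replicate 1 and 1036 without high fat ZT4 replicate 4. The difference between the diets passed for 66 genes (0.386%, with 2286 at an unadjusted p under 0.05), and for 33 without high fat ZT4 replicate 3. It passed for 17 without high fat ZT0 replicate 2 or 3, 35 without high fat ZT4 replicate 1, 40 and 28 without control ZT4 replicates 1 and 2, and 43 without control ZT0 replicate 4.

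Among the 15 rises the median change was 1.24 in the high fat diet and 2.21 in the control diet, and 11 of the 15 passed in the high fat diet. Dio2, at 0.00 ± 0.55, showed no direction there, and the other 14 estimates were positive. The high fat ZT4 values of Dio2 were 8.95, 8.18, 6.38 and 8.67, with replicate 3 the lowest. That replicate was also the lowest high fat ZT4 array for Ifi202b (9.09), Phlda1 (8.25) and Pmp22 (8.26), among others, but not for Gadd45b (10.38). The mean at ZT0 was higher in the high fat diet for all 15, by a median of 0.96, whereas the ZT4 means differed by a median of -0.12 (high fat minus control). For example, Phlda1 averaged 9.15 at ZT4 and 7.32 at ZT0 in the high fat diet, and 9.0 at ZT4 and 6.05 at ZT0 in the control diet. The 15 were picked for their size on the control diet arrays, so this is a description with no test. Mitosis genes had 12 of 23 lower at ZT4 in the high fat diet as well, beside 993 of all 17097 genes. Their median was -0.54 there and -0.42 in the control diet. Nr1d2 rose by 1.40 ± 0.16, beside 1.28 ± 0.16 in the control diet (difference 0.12 ± 0.22, adjusted p = 0.869).

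The change at ZT4 differed between the diets for a small set of genes. Ccrl2, a receptor that holds the chemoattractant chemerin, had 7.20, 6.97, 6.75 and 7.23 at ZT4 and 7.61, 7.76 and 7.89 at ZT0 in the high fat diet, which was lower at ZT4, and 7.83, 7.34 and 7.59 at ZT4 and 6.25, 6.12, 6.40 and 6.19 at ZT0 in the control diet, which was higher at ZT4. The difference was -2.06 ± 0.29 (log2, high fat minus control, adjusted p = 0.000313). The zinc finger gene Zfp672 went the other way, with changes of 0.58 ± 0.12 in the high fat diet and -0.63 ± 0.12 in the control diet (adjusted p of the difference 0.000313, limma). Zfp672 averaged 5.52 at ZT4 and 4.95 at ZT0 in the high fat diet, and 5.04 and 5.66 in the control diet. These means lie well below the array medians. The autophagy gene Trp53inp2 changed by -0.34 in the high fat diet and by 0.37 in the control diet, and the RNA-binding protein gene Tial1 by 0.27 and -0.38. For Coa8, a mitochondrial protein gene, the changes were 0.06 in the high fat diet and -0.77 in the control diet (other probe sets -0.26, which passed, and -0.03, which did not). For the ubiquitin ligase gene Mycbp2 they were 0.59 and -0.14, and its other probe sets gave 0.09, 0.09 and -0.24 in the control diet, none passed.

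Genes already described whose change differed between the diets included Nfil3 (0.29 ± 0.20 high fat, 1.56 ± 0.20 control, adjusted p of the difference 0.0331), Tnfaip3 (0.43 and 1.63, 0.0243) and Neat1 (0.04 and -1.22, 0.0171). Trib1 (0.90 and 2.14, 0.0243), Nr4a2 (0.02 and 1.06, 0.0317) and Nfatc1 (0.21 and 1.12, 0.047) differed too. The total of 66 was 30 with only the arrays compared and 17 without high fat ZT0 replicate 2 or 3. Which named genes were kept in those settings is not given here. Of the 66 genes, 48 passed in the control diet, 55 had opposite signs in the 2 diets, and 8 passed in both diets with opposite signs. Whether the diets' mice of 1 time point were killed on the same day is not stated in the labels, so diet and day cannot be told apart in this comparison.

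**Figure D5:**
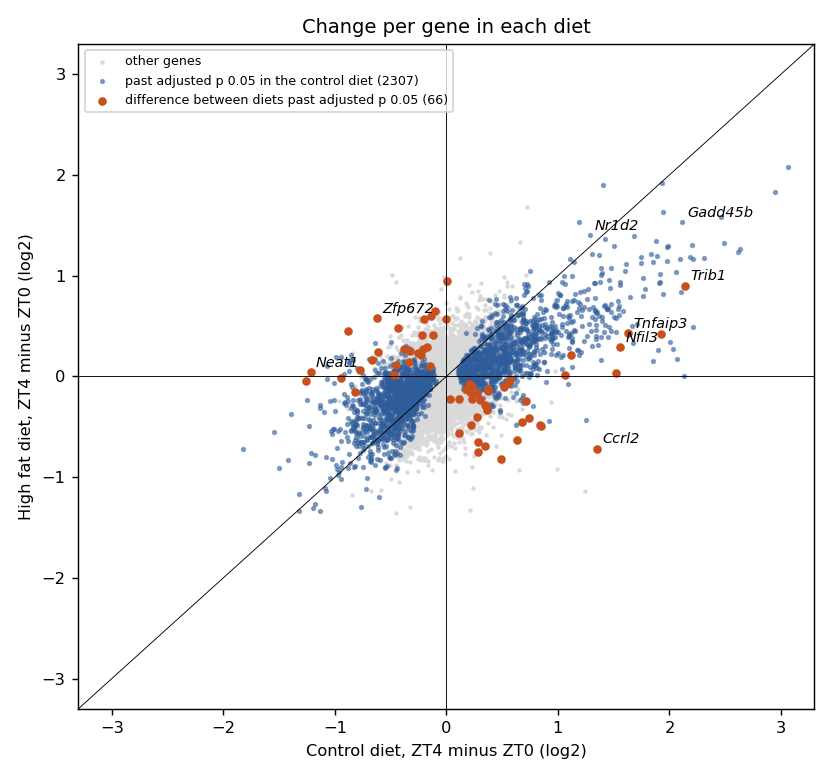
Change at ZT4 minus ZT0 (log2) per gene, with the high fat diet on the vertical axis and the control diet on the horizontal one. Orange points are the 66 genes whose change differed between the diets, blue points the other 2307 genes that passed in the control diet, and the diagonal marks equal change.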

How the data were processed

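The series holds 41 expression arrays of mouse epidermal stem cells in 12 groups of diet and time. The deposited values are log2 intensities that the authors made with RMA, per the submitters' processing notes, with the version not given in the sources used here. They were used as deposited, and scanner files were not used, so signal over background is unknown. RMA shrinks differences of dim probes and ties arrays to a shared distribution.

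Of 45141 probe sets, 104 were controls, 28898 had 1 gene symbol, 551 had several and 15692 had none. The platform annotation can be old, and symbols were updated through RefSeq, where 17055 of 17097 genes matched. For the 7180 genes with several probe sets the one with the highest mean over all arrays was used.

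A model with 1 mean per group was fitted to all 41 arrays with limma 3.58.1 in R 4.3.3 (lmFit, eBayes, 29 residual degrees of freedom), and its two-sided p-values, adjusted by the Benjamini-Hochberg method across the 17097 genes, were called at 0.05. The procedure was tested on simulated data. The text names the 15 genes that rose most and the 15 that fell most, out of those that passed with no overlap of arrays (predicted genes passed over), all measured clock genes, up to 6 members of each other list by smallest adjusted p (applied only to members that passed), and the 6 smallest adjusted p of the diet difference. Outside this rule the text also names Spry2, Plk1, Hmmr, Ttk, Tpx2, Ccnb2, Krt1, Krt10, Krt6a, S100a8 and S100a9. These are not among the named genes counted below. The 38 lists hold 566 members, of which 510 were measured. The comparison, members and lists were chosen with earlier results of these data known. Alternatives changed the arrays fitted, the probe sets, the centring, a filter on dim genes, the variance model, array weights, a replicate block and single arrays.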

Additional observations from a re-analysis of the deposited data

Results flagged for a closer look

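Among the 133 genes named by rule, 5 had a control ZT0 array apart from the other 3 by Dixon's test. Chance passes that test in about 1 of 20 groups. Pmp22 was lowest in ZT0 replicate 3 (log2 7.03), Cdk1 was lowest in ZT0 replicate 4 (8.65), and Notch1 was lowest in ZT0 replicate 1 (11.12). Sqle was highest in ZT0 replicate 1 (8.15) and Rpl30 was highest in ZT0 replicate 4 (12.47). The 3 arrays of ZT4 are too few for that test.

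The change at ZT4 differed between the diets for 12 named genes by the interaction term of limma. As the high fat change minus the control change on the log2 scale, the difference was negative for Ccrl2 (-2.06), Nfil3 (-1.26), Trib1 (-1.24), Tnfaip3 (-1.20), Nr4a2 (-1.05), Nfatc1 (-0.91) and Trp53inp2 (-0.70). It was positive for Neat1 (1.26), Zfp672 (1.20), Coa8 (0.83), Mycbp2 (0.73) and Tial1 (0.65).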

How the results depend on the processing

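The number of genes past the threshold in the control diet was 2355, and 1785 to 2572 under the alternatives that kept all 7 arrays. It was 1568 (without ZT4 replicate 1) to 2010 (without ZT0 replicate 2) with 1 array left out, and for lower genes 754 to 1019. Rises made up 47.8% of the calls, and 57.2% with array medians of the tested genes subtracted. The high fat count of 1577 became 2465 with array weights, and 717 to 1752 with 1 array left out. The diet difference of 66 genes became 30 with only the arrays compared and 182 with array weights, and 17 to 92 with 1 array left out. With a replicate block the counts were 2223 (control), 1224 (high fat) and 58 (difference). Same-numbered control arrays deviated with correlations of -0.035, -0.026 and -0.131, and differently numbered ones with -0.093 to 0.134. No pairing by number was seen, but 3 and 4 arrays are too few to settle it.

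Of 119 genes named by rule that passed, 81 passed under every alternative of arrays, centring and model, and none changed sign under these. For 114 of the 119 the ZT4 and ZT0 arrays did not overlap, so leaving out 1 array could not reverse their sign. The 85 other probe sets of the 119 genes had the same sign in 77 cases (44 passed) and the opposite sign in 8. Opposite estimates came from other probe sets of Adarb1 (0.019), Rora (-0.282), Top2a (0.095), Cdt1 (-0.012), Nr4a2 (-0.003 and -0.074), Trp63 (0.067) and Cdh3 (-0.201). Among clock genes that did not pass, they came from those of Arntl (0.154), Clock (0.008), Per2 (-0.144), Per3 (0.016) and Wee1 (0.116, and 0.001 as the mean of its probe sets). With array medians of all probe sets or of the tested genes subtracted, Bhlhe41 gave 0.004 and 0.008 and Cry2 gave 0.016 and 0.020. With 1 array left out, the ranges were -0.123 to 0.110 for Clock, -0.149 to 0.300 for Per1, -0.137 to 0.012 for Per3, -0.094 to 0.066 for Bhlhe41 and -0.062 to 0.058 for Cry2. The cause was not tested. With 3 arrays against 4, small differences could not be resolved.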
